A study of Homo sapiens with 12 samples.

Results

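BBC3, BCL2A1, BIRC3 and TNFSF15 are 4 regulators of cell death whose RNA was read in DU145, a human prostate cancer cell line. The members were picked by symbol, with their fold changes in these data already known. Their values in the comparisons below are therefore a description, and no test is given for them. BBC3 and BCL2A1 were listed in both of the study's tables, BIRC3 only in the RSL3 table and TNFSF15 only in the ATOH8 table, so each table held 3 of the 4 members, out of 1810 and 1424 listed genes. Each table lists only genes the authors selected, and the level of an unlisted gene was not analysed here.

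The study had 12 RNA libraries in 4 groups of 3. Wild-type DU145 cells received DMSO or RSL3, with 24 h given for RSL3 and the DMSO time not stated separately. RSL3 blocks GPX4, the enzyme that clears lipid peroxides, and so causes ferroptosis, an iron-dependent form of cell death. DU145 cells carrying a control overexpression (oeCTRL) were set against DU145 cells overexpressing ATOH8 (oeATOH8), a DNA-binding regulator of the helix-loop-helix class. The labels give no promoter or vector, do not say whether the overexpressing cells were a clone or a pool, and do not say whether replicates were separate cultures, so any p-value measures only the spread between these libraries.

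Apoptosis is set off through the mitochondrial route, which the BCL2 family gates, or through receptors of the TNF family at the cell surface. BBC3, also called PUMA, is a BH3-only protein that promotes apoptosis, and its gene responds to cell stress. BCL2A1 (BFL1) binds and holds back such BH3-only proteins. BIRC3 (c-IAP2) is a ubiquitin ligase of TNF receptor complexes that favours survival signalling, and both BCL2A1 and BIRC3 are known targets of NF-kB. TNFSF15 (TL1A) is a TNF family ligand whose receptor is TNFRSF25 and whose soluble decoy is TNFRSF6B.

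ATOH8 itself read 26.4, 35.1 and 40.1 normalised reads in the DMSO libraries and 358, 429 and 470.2 in the RSL3 libraries. In the control cells it was counted 13, 10 and 4 times, and in the overexpressing cells 76508, 72569 and 76043 times, where construct and endogenous reads were not separated. In the RSL3 table, the first replicate of each group differed most from the others. The chi-square per degree of freedom between libraries of a group was 60.7 to 106 for pairs with replicate 1 and 1.65 (DMSO) and 1.81 (RSL3) for replicates 2 and 3, so the latter differed little more than counting allows. In the ATOH8 table the same measure was 6.34 to 9.24 in oeCTRL and 13.0 to 39.8 in oeATOH8. Those libraries thus also differed by more than counting, and in oeATOH8 replicate 1 differed most. Over listed genes, reads per library ran from 2523743 to 3096832 in the RSL3 table and from 1508188 to 2226518 in the ATOH8 table, and these sums are not library depths. Of 5 epithelial markers, 2 were in each table, and all were lower in the treated group. They were CDH1 and EPCAM in the RSL3 table, with summed values of 701 to 908 in DMSO and 99.9 to 308 in RSL3, and CDH1 and KRT8 in the ATOH8 table, with 17132 to 17479.6 in oeCTRL and 5980.5 to 6704 in oeATOH8. The part of these markers in the results was not tested. Of 7 leukocyte markers, CD68 alone was in the RSL3 table (787 to 1607 in DMSO and 1498 to 4290 in RSL3, overlapping) and none was in the ATOH8 table, while no endothelial (0 of 4) or fibroblast (0 of 3) marker was in either table.

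The stretches below, from RefSeq's promoter table (GRCh38.p14), show letters that match 3 motifs near the starts of these genes. The 250 bases before each gene's start in that table were searched on both strands for a kappaB site of 10 bases (GGG, 2 free bases, TT, 1 free base and CC), an E-box (CANNTG, the site class of helix-loop-helix factors) and an AP-1 site (TGANTCA). All 4 members were matched in the table, and capitals mark the matched letters, which overlapped no other motif searched. The part of the BIRC3 window upstream of every annotated BIRC3 start is chr11:102317234-102317372 (plus strand), and the other lines are 30 bases around a match, on the minus strand for the other members, at chr15:79971204-79971233, chr19:47232882-47232911, chr19:47232762-47232791 and chr9:114792632-114792661.
BIRC3 upstream: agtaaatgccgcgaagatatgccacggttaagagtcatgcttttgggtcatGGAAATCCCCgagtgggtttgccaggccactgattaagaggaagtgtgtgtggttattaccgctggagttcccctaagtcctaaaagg
BCL2A1 E-box: tccatgtatcatCATGTGtcataactcagt
BBC3 E-box: atggggagatttCACGTGagatatagatta
BBC3 AP-1: gcactggaaggTGAGTCActctggtgaggc
TNFSF15 AP-1: actctttcttcTGAGTCAccctgtccttgg

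BIRC3 held the only kappaB match of the 4 windows, on the strand opposite to the gene and 199 to 190 bases before the start. Of 35116 promoters of the same length, 5.07% held that motif. BBC3 and TNFSF15 each held an AP-1 match, 113 and 120 bases before the start, against 6.57% of all promoters. E-box matches were found in all 4 windows, 2 in BBC3 and 1 in each of the others, but 61.8% of all promoters hold such a match. The start used for TNFSF15 lies 13596 bases inside the outermost annotated start, so that window belongs to a shorter transcript form. For BCL2A1 and BBC3 the outermost annotated start lies 250 and 331 bases further out. A match describes letters in the window only.

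With RSL3, the anti-apoptotic genes BCL2A1 and BIRC3 were at low read counts in every RSL3 library, about 7 times under DMSO on average, while the pro-apoptotic BBC3 was 1.75-fold higher. All 3 genes had DMSO and RSL3 libraries that did not overlap, as did 86.4% of listed genes (48.5% higher and 37.8% lower), so non-overlap does not set them apart in this table. Levels below are normalised reads, that is reads divided by a size factor per library, over 3 libraries a group. In bulk RNA, fewer cells of a kind and less RNA per cell cannot be told apart.

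BCL2A1 (chromosome 15, 79960892 to 79971196, minus strand, GRCh38, in GENCODE a gene of 3 merged exon blocks) read 80.2, 95.4 and 100.4 in DMSO replicates 1, 2 and 3. In RSL3 it read 5.79, 16.9 and 16.0, which came from only 4, 18 and 17 reads. The groups lay far apart, since the lowest DMSO library was 4.75 times the highest RSL3 library. Means were 92.0 ± 10.5 in DMSO and 12.9 ± 6.15 in RSL3 (SD, n = 3), a 7.15-fold lower level with a log2 fold change of -2.86 (SE 0.43). The decrease was 13.9-fold within replicate 1 and 5.65-fold and 6.29-fold within replicates 2 and 3. The 4 reads of RSL3 replicate 1 allow a value of 1.58 to 14.8 (exact Poisson 95% interval), so counting error alone gives that library wide limits. The interval covers counting error only.

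BIRC3 (chromosome 11, 102317373 to 102339403, plus strand, 12 merged exon blocks) read 22.0, 117 and 111 in DMSO and 7.24, 9.38 and 17.8 in RSL3. DMSO replicate 1 stood well below its group, and its Poisson interval of 13.4 to 33.9 overlapped that of RSL3 replicate 3, 10.7 to 27.8. Means were 83.2 ± 53.1 in DMSO and 11.5 ± 5.60 in RSL3 (SD, n = 3), a 7.25-fold lower level with a log2 fold change of -2.52 (SE 0.67). Within replicate 1 the decrease was 3.04-fold, and within replicates 2 and 3 it was 12.5-fold and 6.22-fold. BIRC3 thus had a mean decrease like that of BCL2A1 but a coefficient of variation of 63.8% in DMSO against 11.4%. With replicate 1 left out of both groups, BIRC3 was 8.37-fold and BCL2A1 5.96-fold lower.

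BBC3 (chromosome 19, 47220822 to 47232998, minus strand, 5 merged exon blocks) read 126, 81.7 and 92.5 in DMSO and 230.2, 131 and 163 in RSL3. The highest DMSO library, replicate 1, came within 1.04 times of the lowest RSL3 library, replicate 2, so the groups were separate by less than counting error. Replicate 1 was the highest library of each group, and within equal replicate numbers the increase was 1.82-fold, 1.61-fold and 1.77-fold. The spread between replicates was thus larger in the levels than in the matched ratios. Means were 100.2 ± 23.3 in DMSO and 175 ± 50.5 in RSL3 (SD, n = 3), with a log2 fold change of 0.78 (SE 0.30). Exons of BBC3 hold the microRNA loci MIR3190 (opposite strand) and MIR3191, neither of which was in a table.

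**Figure D1:**
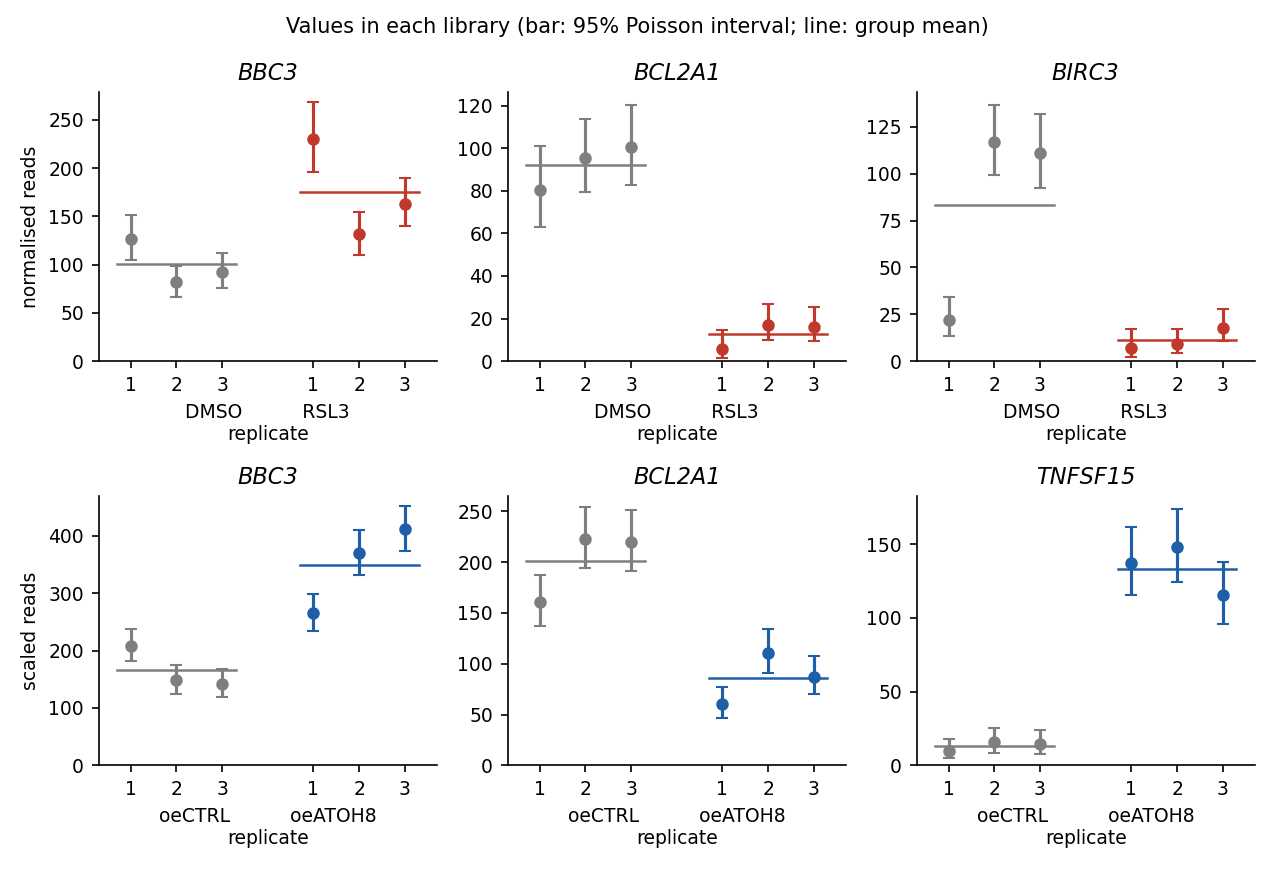
Value of each listed member in each library, with the RSL3 table above (normalised reads) and the ATOH8 table below (scaled reads). Points are libraries by replicate number, bars are exact Poisson 95% intervals and horizontal lines are group means, and BIRC3 in DMSO replicate 1 (22.0) sits near the RSL3 libraries (7.24 to 17.8).

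The plot of ratios by replicate shows how differently the 3 genes behaved within equal numbers: BBC3 kept to a narrow band, BCL2A1 had its largest decrease in replicate 1, and BIRC3 had its smallest there. For each member, the 3 named genes with a mean of at least 50 whose profile was nearest (smallest root mean square difference of log2 values over the 6 libraries, out of 1377 genes) were looked up. TNFAIP3, which encodes the ubiquitin-editing NF-kB inhibitor A20, was nearest to BIRC3 (difference 0.56 on the log2 scale), followed by NTN4 (0.58) and PXDN (0.61). TNFAIP3 read 291, 827 and 804 in DMSO and 66.6, 203 and 184 in RSL3. Like BIRC3, it was lowest in replicate 1 of both groups. OASL (0.39), NTN4 (0.40) and CDH1 (0.43) were nearest to BCL2A1, and NUDT2, TOM1 and CBX2 were nearest to BBC3, at 0.059 to 0.069. These distances are descriptions over 6 libraries that share group and replicate structure.

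**Figure D2:**
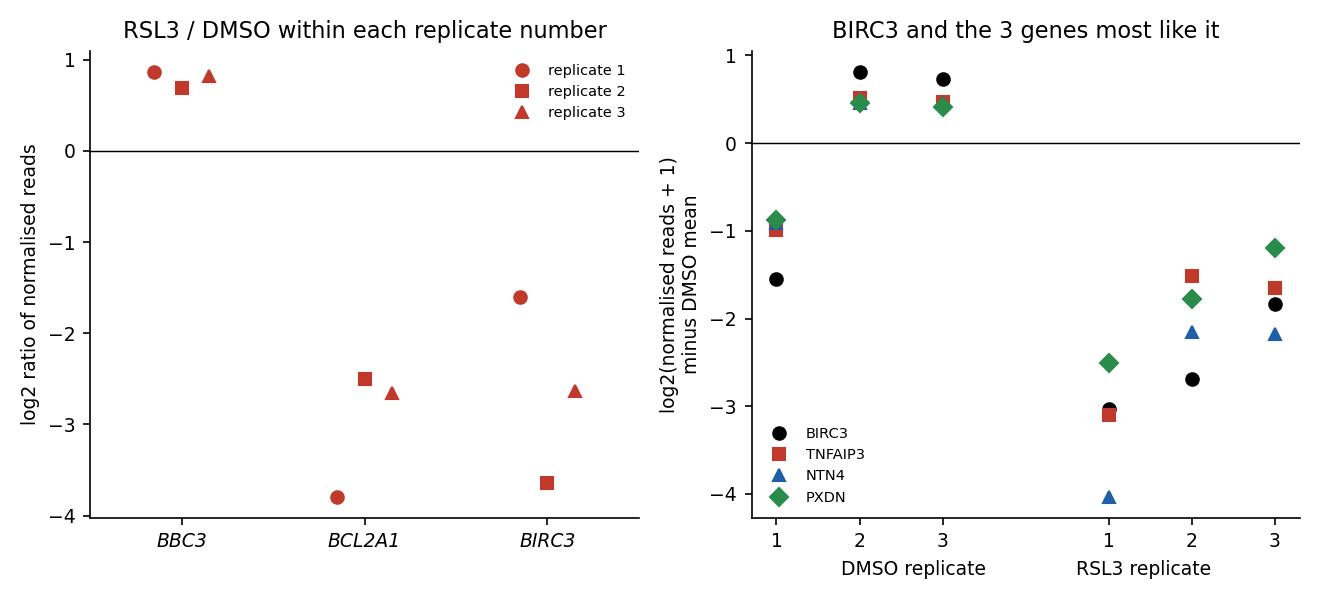
Left, log2 ratio of RSL3 over DMSO within each replicate number for BBC3, BCL2A1 and BIRC3; right, log2(normalised reads + 1) minus the DMSO mean for BIRC3 and the 3 genes nearest to it, by library. BIRC3 and its neighbours TNFAIP3, NTN4 and PXDN were all low in DMSO replicate 1 relative to DMSO replicates 2 and 3.

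Within the RSL3 table, BIRC3 ranked 28th and BCL2A1 29th of 852 lower genes by ratio of means, against a median log2 ratio of -1.15 among lower genes. BBC3 ranked 488th of 958 higher genes, so its increase was ordinary for a listed gene. The plot of log2 ratios places all members among the listed genes of each table.

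**Figure D3:**
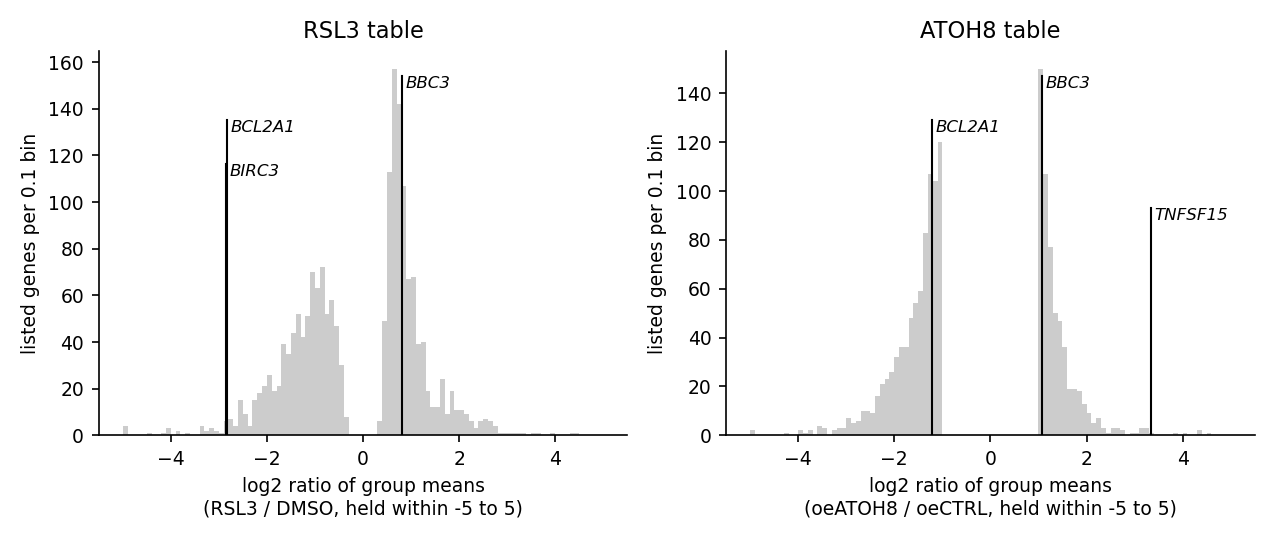
Histograms of the log2 ratio of group means for all listed genes in the RSL3 table (left) and the ATOH8 table (right), in bins of 0.1 with the most extreme ratios held at the outermost bins, and with the members as vertical lines. BCL2A1 and BIRC3 lie in the lower tail with RSL3, TNFSF15 in the upper tail with oeATOH8, and BBC3 lies near the mode of the higher genes in both.

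Overexpression of ATOH8 went with a TNFSF15 level 10.1-fold above control. BBC3 was 2.10-fold higher and BCL2A1 2.34-fold lower, the same directions as with RSL3. Again no member's groups overlapped, as for 99.6% of listed genes (41.4% higher and 58.3% lower), so this too is a property of the table. Levels are read counts scaled so that the gap of unlisted fold changes is centred on 0, over 3 libraries a group.

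TNFSF15 (chromosome 9, 114784635 to 114806126, minus strand, 4 merged exon blocks) had read counts of 10, 15 and 14 in the oeCTRL libraries against 141, 144 and 119 in the oeATOH8 libraries. On the scaled level these were 9.70, 15.5 and 14.4 against 137, 148 and 115. The control libraries were uniformly low and the oeATOH8 libraries uniformly high, with a factor of 7.43 between the nearest pair. Means were 13.2 ± 3.09 and 133 ± 16.5 (SD, n = 3), with a log2 fold change of 3.33 (SE 0.31). TNFSF15 ranked 12th of 589 higher genes. The genes with the nearest profiles among 1045 were MT1X, a metallothionein (0.21 on the log2 scale), IL24, a cytokine (0.42), and the readthrough locus ZNF8-ERVK3-1 (0.53). MT1X rose 9.49-fold and IL24 6.84-fold. The haemoglobin genes HBA1, HBA2 and HBB, 3 of 5 erythroid markers, were also far higher in oeATOH8, with a summed value of 4.11 to 12.6 in oeCTRL and 3224 to 55109 in oeATOH8. HBB, the beta-globin gene, was at 0 reads in all 3 oeCTRL libraries and had 24191, 1411 and 5593 reads in oeATOH8, an uneven spread that TNFSF15 did not show, and the part of this signal in the result was not tested. Neither TNFRSF25, the TNFSF15 receptor, nor the decoy TNFRSF6B was in the ATOH8 table.

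BBC3 had read counts of 215, 143 and 138 in the oeCTRL libraries against 273, 360 and 424 in the oeATOH8 libraries, which scale to 208, 148 and 142 against 266, 369.5 and 411. The highest control and the lowest oeATOH8 library were 1.27-fold apart. Means were 166 ± 36.8 and 349 ± 75.1 (SD, n = 3), with a log2 fold change of 1.07 (SE 0.21). BBC3 ranked 477th of 589 higher genes, close to the edge of 1.00 at which genes enter this table on the log2 scale. Its nearest profiles were those of B3GALT6 (0.15), UQCC5 (0.16) and CHSY3 (0.17).

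BCL2A1 had read counts of 166, 215 and 214 in the oeCTRL libraries against 62, 108 and 90 in the oeATOH8 libraries, which scale to 161, 223 and 220.1 against 60.3, 111 and 87.3. The groups were separate, with 1.45-fold between the nearest libraries. Means were 201 ± 34.9 and 86.2 ± 25.3 (SD, n = 3), with a log2 fold change of -1.22 (SE 0.26). BCL2A1 ranked 582nd of 835 lower genes, so it was an extreme gene with RSL3 and an ordinary one with oeATOH8. Its nearest profiles were those of RYR1 (0.16), FKBP7 (0.18) and DDIT4L (0.18). BIRC3 and its chromosomal neighbour and relative BIRC2 were not in the ATOH8 table.

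BBC3 and BCL2A1 were 2 of 251 named genes found in both tables, which is 13.9% of the RSL3 table and 17.6% of the ATOH8 table. Of these, 79 were higher in both (31.5%, BBC3 among them), 122 lower in both (48.6%, BCL2A1 among them) and the rest differed in direction. The 2 comparisons share no library. Levels were not compared across tables, which were normalised separately.

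The values depend on how the groups were scaled. With RSL3, the log2 fold change of BBC3 was 0.784 as reported. It was 0.499 by TMM, 0.479 by relative log expression and 0.315 by totals over listed genes. BCL2A1 and BIRC3 were lower still by totals (-3.295 and -2.956). In the ATOH8 table, relative log expression, which takes listed genes as unchanged on balance, gave 1.98 for BBC3, -0.31 for BCL2A1 and 4.24 for TNFSF15. Scaling to listed totals gave 0.61, -1.68 and 2.88 there. The plot of settings gives all values. Each scaling shifted all genes of a table by a like amount, less than any member's distance from 0, so the signs could not turn under it.

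**Figure D4:**
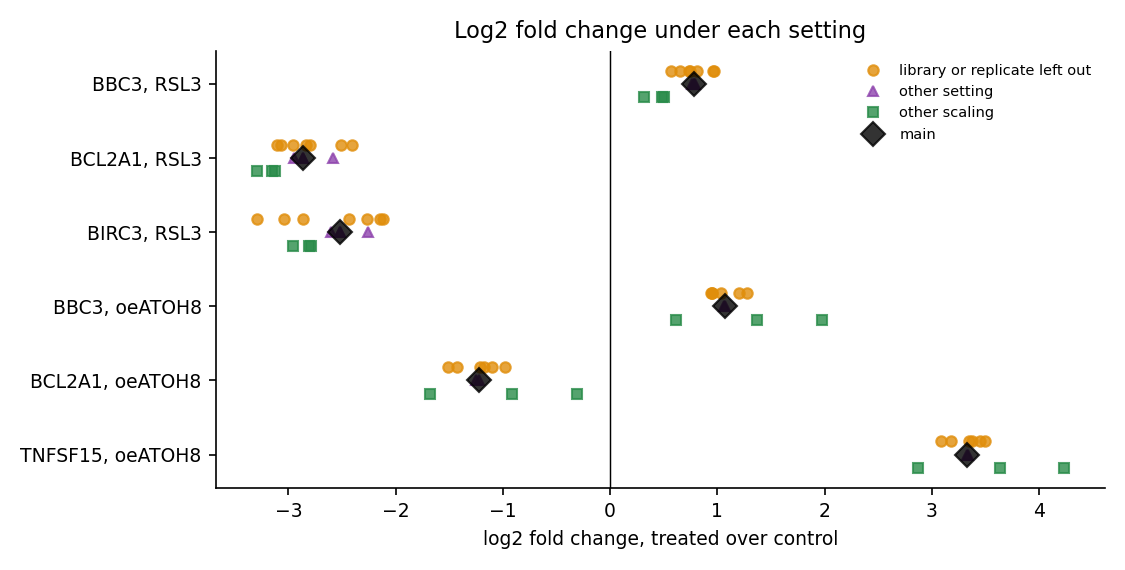
Log2 fold change of each member (treated over control) as reported (diamonds), with libraries left out (circles), under other scalings (squares) and under other settings (triangles). The widest range under other scalings was that of BBC3, BCL2A1 and TNFSF15 in the ATOH8 table.

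To set the members in their pathways, 8 lists holding 163 other genes were looked up (BCL2 family, IAP proteins and antagonists, TNF ligands, TNF receptors, death signalling and caspases, NF-kB pathway, stress inputs to BBC3 and 1 list not described further). In the RSL3 table, 22 of the 163 were listed, 11 higher and 11 lower. By limma with adjustment over all tested genes, 5 rose and 10 fell, while 7 missed the threshold, where 82% of all tested genes passed (43.1% higher and 38.9% lower). With no library left out, edgeR on the recovered reads passed 18 of the 22 (7 higher and 11 lower) and 1561 of all. DESeq2 passed all 22 (11 higher and 11 lower) and 1727 of all, so which genes missed the threshold depended on the test. Of all passing genes 52.6% were higher, but 30%, 28.8% and 24.2% were when libraries were scaled by TMM, by relative log expression or by totals over listed genes. The median log2 fold change of the 22 was -0.0025, beside 0.51 over all tested genes. With the replicate number as a block, all 22 passed, as did 1720 of all 1732 tested genes. Without replicate 1 of both groups all 22 passed too, as did 1713 of all tested genes. That setting keeps only replicates 2 and 3, which differed little more than counting allows. Without DMSO replicate 2 or 3 limma passed 0 of the 22, and 6 or 8 of all tested genes. In each case 10 of the 22 had an unadjusted limma p under 0.05. There edgeR passed 0 of the 22 (7 or 6 of all) and DESeq2 passed 5 (220 or 229 of all). Without RSL3 replicate 2 or 3 limma passed 5 or 4 of the 22, and 330 or 310 of all. These counts thus moved with those of the whole table.

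The NF-kB pathway list, to whose targets BCL2A1 and BIRC3 belong, had 6 of 26 genes in the RSL3 table, of which 5 fell and 1 rose. Of all tested genes 38.9% passed as lower and 43.1% as higher, shares that moved with the scaling. TNFAIP3 fell 4.24-fold, and NFKBIA, the inhibitor that NF-kB itself induces, fell 1.65-fold with 8292, 8004 and 8112 in DMSO and 5454.5, 4771 and 4601.5 in RSL3 (limma adjusted p = 0.0216). TNIP1, an A20 partner, fell 1.60-fold (limma adjusted p = 0.0360), and IKBKG, the regulatory subunit of the IKK complex, rose 1.48-fold (limma adjusted p = 0.0363, log2 fold change 0.57 but 0.096 when scaled to totals). NFKBIZ and the NF-kB subunit gene NFKB1 also fell, 2.97-fold and 1.57-fold. RELA, the main activating subunit gene, was not in either table. In the ATOH8 table the same list had 1 of 26 genes, NFKB1, which rose 2.12-fold.

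Of the 19 other BCL2 family genes, 2 were in the RSL3 table. BIK, a BH3-only gene, fell 1.99-fold from 113 ± 5.64 to 56.8 ± 13.1 (limma adjusted p = 0.0276). The pore-forming BAX was at 1408 ± 319.7 in DMSO and 2538 ± 1389 in RSL3 and missed the threshold (limma adjusted p = 0.0761). In the ATOH8 table, 3 of the 19 were listed. BCL2L1, which encodes the survival protein BCL-XL, rose 2.18-fold (8086 ± 195 to 17661 ± 588, edgeR adjusted p = 1.73e-09), and BCL2, a survival gene at low level, rose 3.32-fold (31.6 ± 13.8 to 104.9 ± 32.7, edgeR adjusted p = 0.00101). BCL2L11, which encodes the BH3-only protein BIM, fell 2.86-fold (2069 ± 63.2 to 724 ± 53.8, edgeR adjusted p = 9.69e-09). Its log2 fold change of -1.51 was -0.61 when scaled by relative log expression. Those of BCL2L1 and BCL2 were larger under that scaling, 2.04 and 2.63. So with oeATOH8 the pro-apoptotic genes BBC3 and BCL2L11 lay on opposite sides, as did the survival genes BCL2A1 on the lower side and BCL2L1 and BCL2 on the higher side.

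Among TNF receptors, 4 of 29 were in the RSL3 table. TNFRSF6B, the decoy for TNFSF15, fell 1.96-fold, with 1074, 1025 and 1098 in DMSO and 529, 578 and 521 in RSL3 (limma adjusted p = 0.0132), the smallest of this list. TNFRSF18 rose 3.70-fold from 21.7 ± 7.86 to 80.3 ± 36.3, and CD27 rose 3.06-fold on only 5 to 18 reads a library. TNFRSF1B (288 ± 99.5 to 545.5 ± 288) missed the threshold. The TNF ligand LTB fell 3.02-fold with RSL3 and rose 2.96-fold with oeATOH8, and TNFSF9 fell 2.80-fold with oeATOH8. Scaled by relative log expression, the log2 fold change with oeATOH8 was -0.58 instead of -1.49 for TNFSF9. For LTB it was 2.47 instead of 1.56. In the ATOH8 table, 2 of 29 receptors were listed, TNFRSF12A, the TWEAK receptor (3.05-fold higher), and TNFRSF1B (2.19-fold), and both rose.

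Of 29 death signalling genes, CFLAR, the caspase-8 inhibitor, fell 1.38-fold with RSL3 (limma adjusted p = 0.0482), and CASP4 (109 ± 52.9 to 45.9 ± 19.9) missed the threshold. With oeATOH8, TRAF1, an adaptor known as an NF-kB target, rose 2.45-fold and the initiator CASP9 fell 2.08-fold, a log2 fold change of -1.06 that was -0.15 when scaled by relative log expression. RIPK1 and TRAF2, which work with BIRC3 at TNF receptors, were in neither table. The IAP list had 1 of 9 genes with RSL3, the IAP antagonist DIABLO (1165 ± 184 to 1624 ± 262, limma adjusted p = 0.0518, log2 fold change 0.48 but 0.006 when scaled to totals), and 0 of 9 with oeATOH8.

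Of the list of stress inputs to BBC3, TRIB3, a stress-induced pseudokinase, and CEBPB, a transcription factor, missed the threshold with RSL3 (limma adjusted p = 0.0556 and 0.0558). TRIB3 was at 2033 ± 63.7 in DMSO and 4740.3 ± 3445 in RSL3, where replicate 1 was the highest library. That was not particular to TRIB3 or BBC3, since CEBPB and BAX were also highest there. Summed over listed genes, RSL3 replicate 1 had a value of 4410764, against 2894640 and 2906392 in replicates 2 and 3. Before normalisation, BBC3 had more reads in RSL3 replicate 3 (174) than in replicate 1 (159). In the ATOH8 table, TRIB3 and CEBPB rose 2.09-fold and 2.02-fold.

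Over the 8 lists, 18 of 163 genes were in the ATOH8 table, 13 of which rose and 5 fell by edgeR, where 100% of tested genes passed (41.4% higher and 58.6% lower, but 58.5% of passing genes higher when scaled by relative log expression). With that scaling 13 list genes rose and 3 fell. In the reported scaling, the median log2 fold change of the 18 was 1.11, beside -1.10 over all tested genes. Listed genes begin about 1.00 from 0 in that scaling, so these medians mostly reflect which direction held more genes.

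**Figure D5:**
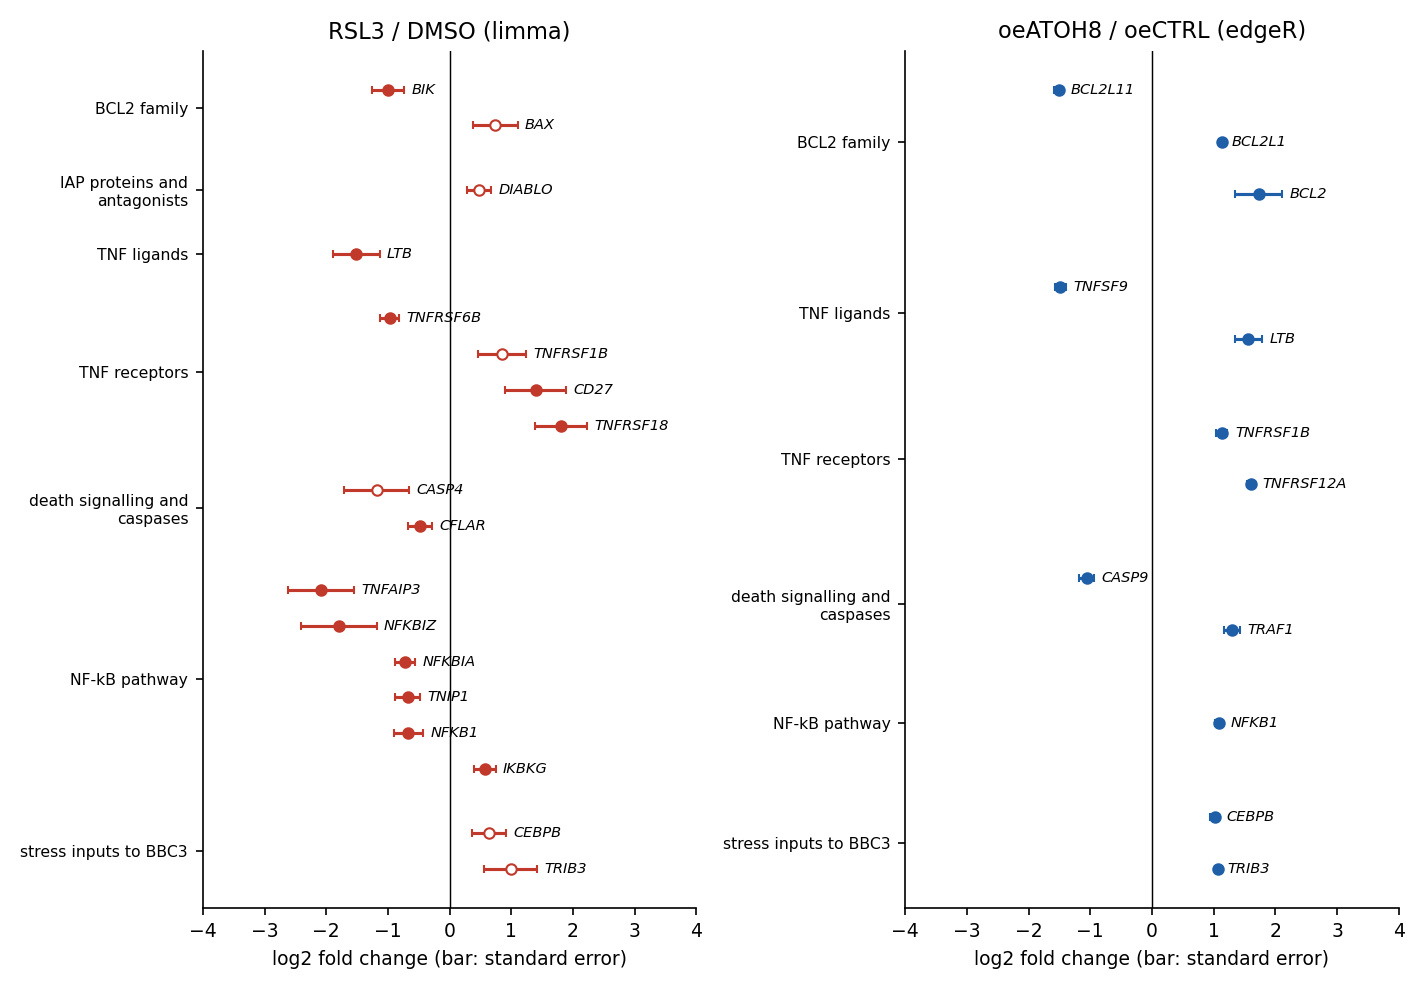
Log2 fold change (horizontal axis) with its standard error for genes of the 7 lists described that were found in the RSL3 table (left, limma) and in the ATOH8 table (right, edgeR), members and 1 other gene left out. Filled points passed at an adjusted p of 0.05 and open points missed it. On the left 5 of 6 NF-kB pathway genes lie below 0 (38.9% of all tested genes passed as lower), and on the right NFKB1 lies above 0.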

How the data were processed

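RNA-seq libraries of DU145 cells were used. The submitters' processing notes list DESeq2, StringTie, HISAT2 and fastp with neither version nor role, and build hg38 (GRCh38); strandedness is not given in the sources used here. The deposited RSL3 table holds a normalised signal whose values were whole multiples of 1 step per library (100% within 0.001 reads), which gave the reads and size factors of 0.691 to 1.31. The deposited ATOH8 table holds read counts, and its NC and OE columns were taken as oeCTRL and oeATOH8. RSL3 rows took the name of a RefSeq or GENCODE gene whose overlap was 0.5 or more of the joint span of row and gene. Of 1810 rows, 26 stayed unnamed. In the ATOH8 table, 1137 of 1152 Ensembl identifiers had a symbol, beside 272 assembled loci.

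RSL3 values were tested with limma 3.58.1 (trended variance) on log2(value + 1), a scale that understates changes of low genes, after filterByExpr (minimum count 10, total 15) removed 78 genes. ATOH8 counts were tested with edgeR 4.0.16 (quasi-likelihood), scaled so that the gap of unlisted log2 ratios (-0.97 to 1.03 before centring) was centred on 0, which assumes symmetric fold limits. P-values are two-sided and adjusted by Benjamini-Hochberg over listed genes, at 0.05. The authors had already selected the listed genes, so calls and adjusted p-values are not independent of that selection. DESeq2 1.42.0 served as an alternative. The fits were also run on simulated counts with the same dispersion for every gene, no replicate effect and most genes unchanged. That setting is unlike these libraries and selected genes, so it does not show how the fits perform on them. The members and lists were chosen with earlier results of these data known, and the motifs also with the promoter sequences in view. By rule, the 4 or fewer called genes of each list that had the lowest adjusted p, and the 3 nearest profiles per member were named; further list genes were named after their values were seen. A gene and 1 list are counted in the totals over all lists but not reported here.

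Within the RSL3 table, libraries with the same number deviated together (correlations 0.61, 0.47 and 0.44). Equal numbers were therefore matched for the ratios by replicate and for the replicate block. The reported limma fit, with its SEs and adjusted p-values, did not pair them. Unlike numbers 2 and 3 correlated as much (0.467 and 0.501), so the correlations separate only replicate 1 from the others.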

Additional observations from a re-analysis of the deposited data

How the results depend on the processing

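The SD used here pools the spread of a gene's log2 values between libraries within groups, and it is wide for BIRC3 with RSL3. Of 75 alternative values of the members' log2 fold changes, 67 lay within 1 such SD of the reported value. The others were BBC3 with RSL3 scaled to listed totals (0.315), and, with oeATOH8, BBC3 (1.98 by relative log expression, 0.61 by totals), BCL2A1 (-0.31 and -1.68) and TNFSF15 (4.235 and 2.875, and 3.64 by TMM). Leaving out 1 library gave 0.57 to 0.97 for BBC3, -3.11 to -2.41 for BCL2A1 and -3.29 to -2.11 for BIRC3 with RSL3, and 0.94 to 1.27, -1.52 to -0.98 and 3.08 to 3.50 for BBC3, BCL2A1 and TNFSF15 with oeATOH8. RSL3 calls over all listed genes (1421, 52.6% higher) were 926 by TMM, 898 by relative log expression and 636 by totals, with 30%, 28.8% and 24.2% higher. When p-values were adjusted for 59792 annotated genes, 0 genes passed by limma (1554 at an unadjusted p under 0.05), 2 by limma with the block, 0 by edgeR and 193 by DESeq2. Leaving out 1 library gave 6 to 1445, with 6 and 8 without DMSO replicates 2 and 3, and 330 and 310 without RSL3 replicates 2 and 3. Without replicate 1 of both groups, 1713 passed. The p-values of that setting measure only the spread between replicates 2 and 3, which was little more than counting error. List members passing with RSL3 (15) were 18 by edgeR and 22 by DESeq2 on the recovered reads. They were 8 by totals (2 higher and 6 lower), 0 to 18 with 1 library left out and 22 without replicate 1 of both groups. The cause was not tested. In the ATOH8 table, calls ran from 1007 to 1424 and the share higher was 58.5% by relative log expression. Over listed genes, the scalings shifted log2 fold changes by -0.29 (TMM), -0.31 (relative log expression) and -0.47 (totals) with RSL3, and by 0.31, 0.91 and -0.46 with oeATOH8.

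With the replicate block, 1720 genes passed with RSL3 and 1424 with oeATOH8, and the 7 list genes that had missed the threshold with RSL3 passed. The members kept their log2 fold changes with RSL3. Their SEs there were 0.149 for BBC3, 0.313 for BCL2A1 and 0.432 for BIRC3, against 0.296, 0.428 and 0.674 without the block. With oeATOH8 and the block, the log2 fold changes were 1.065 for BBC3, -1.246 for BCL2A1 and 3.332 for TNFSF15. In the ATOH8 table equal numbers correlated at 0.057, 0.048 and 0.088, so they share only a number, although each library correlated best with its own. Totals scaling of the RSL3 table and the omission of replicate 1 from both groups were chosen after seeing the data. Low reads limit BCL2A1 and BIRC3 in RSL3 (4 to 19 reads a library) and TNFSF15 in oeCTRL (10 to 15).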

Other observations

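Besides BBC3 and BCL2A1, 6 genes of the 8 lists were in both tables. TRIB3, TNFRSF1B, CEBPB and a gene of the list not described further had higher means in both. LTB, which encodes lymphotoxin beta, and NFKB1, which encodes an NF-kB subunit precursor, lay on the lower side with RSL3 and on the higher side with oeATOH8. LTB read 321, 759 and 773 in DMSO and 261, 195 and 159 in RSL3, and on the scaled level 77.6, 102 and 80.2 in oeCTRL and 283, 285 and 202 in oeATOH8. NFKB1 was at 1186 ± 161 in DMSO and 757 ± 182 in RSL3, and at 2232 ± 35.1 in oeCTRL and 4731 ± 250.4 in oeATOH8 (SD, n = 3). The 2 contrasts differ in treatment, and the difference between them was not tested.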
